A study of Rattus norvegicus with 4 samples.

Results

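Collagens are the main fibrous proteins of the extracellular matrix. The genes described here encode collagen chains, the enzymes that modify and crosslink them, and their folding chaperone. They were measured in cultured neonatal rat ventricular cardiomyocytes with and without phenylephrine (PE), an agonist of alpha-1 adrenergic receptors that is used to induce hypertrophic growth of such cells. Members were the protein-coding genes whose symbol begins like that of a collagen chain, and 12 named enzyme and chaperone genes. Of 32883 genes in the count table, 56 matched, and 51 of these had a summed count of at least 15 over the libraries. One match, Col4a3bp, encodes a ceramide transfer protein and no collagen chain, and it was left out of all counts below. It did not pass the test, at a log2 fold change of 0.13 ± 0.18 (SE, adjusted p = 0.698). The rest were 43 chains, 38 of them with a summed count of at least 15, and the 12 enzyme and chaperone genes. An expression filter on all genes left 15257 to test, with 37 of the chains and all 12 others among them.

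Treated cells received 20 µM PE for 24 h (2 libraries), and the control cells were untreated (2 libraries). All cells came from ventricles of Sprague-Dawley rats at postnatal day 2 and had been plated for a short time first to remove cells that attach early. They were then cultured in medium with serum. Total RNA was depleted of ribosomal RNA and turned into strand-specific libraries. Total counts were 56948370 and 48075810 for PE replicates 1 and 2, against 51917449 and 45637881 for control replicates 1 and 2. The labels do not say that replicates were separate cultures, so p-values measure the spread between these libraries, which may be technical.

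As background, a collagen molecule is a trimer of chains wound around each other. Chains are folded in the endoplasmic reticulum, where prolyl 4-hydroxylase makes the trimer stable to heat, lysyl hydroxylases prepare crosslinking sites and the chaperone of Serpinh1, known as HSP47, binds the folded helix. After secretion, lysyl oxidases crosslink the fibrils. In the heart, types I and III form the interstitial fibrils, made mainly by fibroblasts, while type IV forms the sheet of the basement membrane around each cardiomyocyte and capillary and type VI forms beaded filaments at its outer face.

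With PE, some collagen chain genes rose and others fell. The type III chain Col3a1 fell to 0.391 of its control level, the 4 tested type VI chains fell, and the minor fibrillar chain Col11a1 fell to 0.149 of its control level. The network chain Col8a1 rose 3.05-fold, Col24a1 rose 3.35-fold and Col12a1 rose 1.89-fold. The modifying enzymes Lox, Plod2 and P4ha1, 1 of each enzyme family, rose 1.74-fold, 1.75-fold and 1.86-fold. Of 49 tested members, 8 rose, 12 fell and 29 did not pass at an adjusted p under 0.05, so 40.8% were called, against 15.7% of all 15257 tested genes. Among all tested genes 7.39% were called higher and 8.3% lower. The 12 members that fell include Col2a1, which passed the expression filter through the control libraries alone, so its direction was fixed. The chains alone gave 5 higher, 12 lower and 20 not passing of 37, and the enzymes and chaperone gave 3 higher and 9 not passing of 12. The number of calls rested on the libraries. Without PE replicate 1 there were 4 higher and 6 lower members, and without PE replicate 2 there were 2 higher and 10 lower. Without control replicate 1 there were 16 higher and 11 lower members, and without control replicate 2 there were 11 higher and 17 lower. In each of these fits the lone library of a group was assumed to vary like the other group. The median log2 fold change of the tested chains was -0.21, against -0.01 for all tested genes, and it was 0.050 without control replicate 1 and -0.11 without PE replicate 1. That of the enzymes and chaperone was 0.08, and it was -0.13 without control replicate 2, -0.02 without PE replicate 2, 0.26 without PE replicate 1 and 0.50 without control replicate 1.

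**Figure D1:**
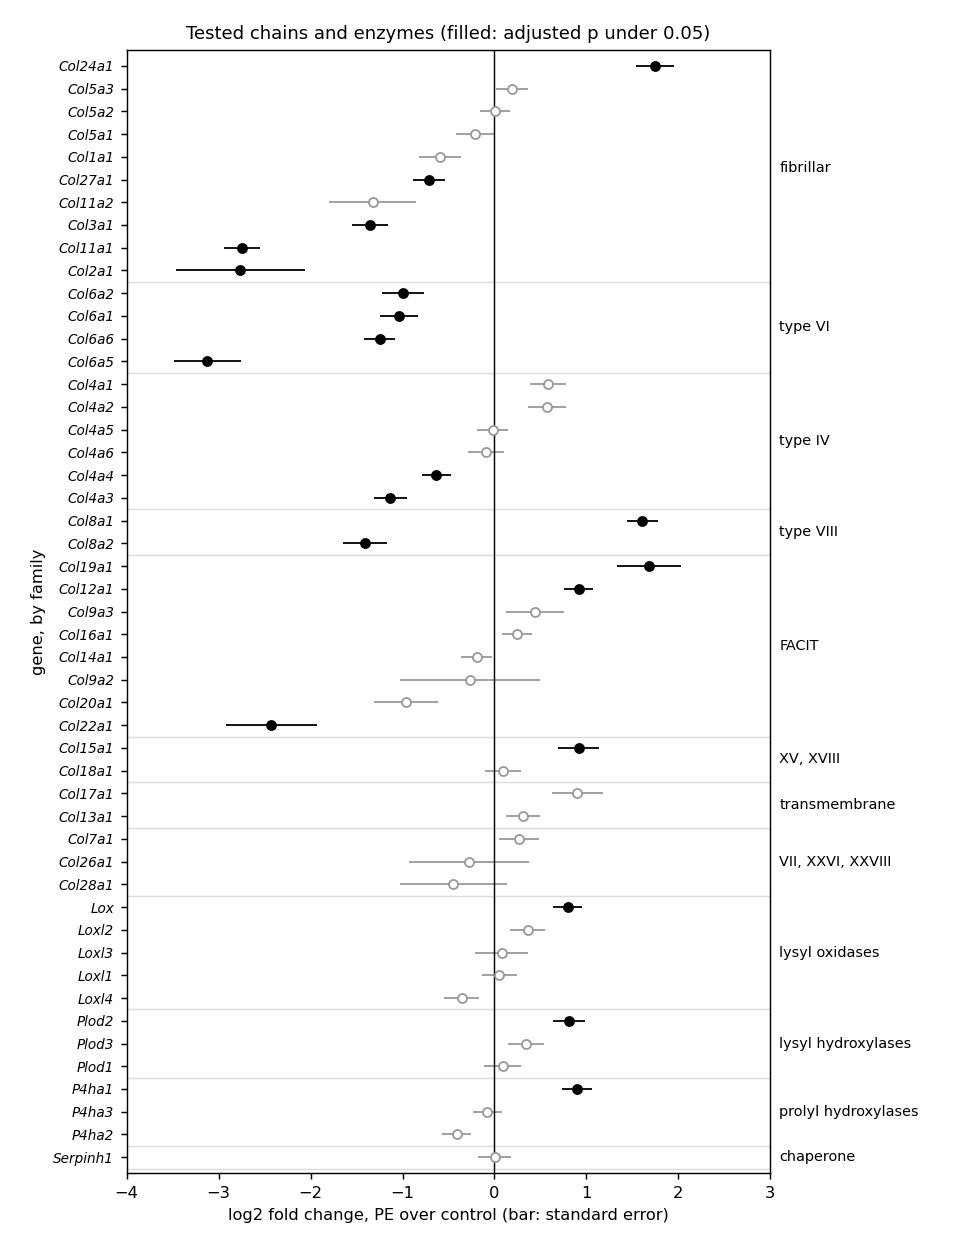
Log2 fold change (x axis, PE over control) of each tested collagen chain, enzyme and chaperone (y axis), grouped by family, with the standard error as a bar; filled points passed at an adjusted p under 0.05. The 4 type VI chains all lie left of 0, and Col6a5 is the farthest at -3.13, while the fibrillar, type IV and type VIII groups hold members on both sides.

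The chains of type IV collagen are encoded in head-to-head gene pairs, and the start regions of the pairs whose printed stretches share bases are shown. In the RefSeq annotation of the build GRCr8, the starts of Col4a1 and Col4a2 lie 77 bases apart on opposite strands of chromosome 16, those of Col4a3 and Col4a4 lie 413 bases apart on chromosome 9, and those of Col4a5 and Col4a6 lie 1415 bases apart on chromosome X. The sequences run from 250 bases before to 50 bases after each start, 5′ to 3′ on the gene's own strand. Col4a1 is at chr16:84885347-84885646, plus strand, and Col4a2 at chr16:84885471-84885770, minus strand, so that 176 bases stand in both. Col4a3 is at chr9:91323740-91324039, plus strand, and Col4a4 at chr9:91323528-91323827, minus strand, with 88 bases in both. Capitals mark matches on either strand to the GC box (GGGCGG), the CCAAT box (CCAAT), the TATA box (TATAAA) or the core of the hypoxia-inducible factor motif (ACGTG), and no printed match overlaps another.
Col4a1: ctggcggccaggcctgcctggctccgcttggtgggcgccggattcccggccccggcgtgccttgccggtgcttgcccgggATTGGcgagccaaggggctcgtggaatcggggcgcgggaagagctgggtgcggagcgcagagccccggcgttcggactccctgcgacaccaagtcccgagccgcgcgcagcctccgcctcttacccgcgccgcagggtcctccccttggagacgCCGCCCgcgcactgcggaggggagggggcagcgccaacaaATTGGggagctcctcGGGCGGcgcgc
Col4a2: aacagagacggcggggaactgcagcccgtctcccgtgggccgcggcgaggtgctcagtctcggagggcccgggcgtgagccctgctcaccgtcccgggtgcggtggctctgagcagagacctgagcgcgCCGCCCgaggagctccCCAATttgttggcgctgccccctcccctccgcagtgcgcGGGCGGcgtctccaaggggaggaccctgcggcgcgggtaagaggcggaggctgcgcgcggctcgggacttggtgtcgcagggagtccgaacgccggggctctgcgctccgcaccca
Col4a3: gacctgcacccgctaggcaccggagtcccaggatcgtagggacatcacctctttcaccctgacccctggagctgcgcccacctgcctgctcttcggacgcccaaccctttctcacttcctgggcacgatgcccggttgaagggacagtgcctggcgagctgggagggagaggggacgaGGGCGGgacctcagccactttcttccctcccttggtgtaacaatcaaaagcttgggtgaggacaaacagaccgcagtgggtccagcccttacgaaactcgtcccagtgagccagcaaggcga
Col4a4: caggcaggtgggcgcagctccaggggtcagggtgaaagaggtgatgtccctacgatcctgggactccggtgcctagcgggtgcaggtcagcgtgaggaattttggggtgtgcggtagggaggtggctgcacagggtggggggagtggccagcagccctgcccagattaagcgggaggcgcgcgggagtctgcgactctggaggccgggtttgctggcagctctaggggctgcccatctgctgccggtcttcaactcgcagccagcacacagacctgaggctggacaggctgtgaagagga

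The start regions of Plod2 (chr8:101964068-101964367, plus strand) and P4ha1 (chr20:27844796-27845095, plus strand) are shown because both enzyme genes were called higher. Whether they share regulation was not tested. Those of Col8a1 (chr11:56246532-56246831, plus strand) and Col11a1 (chr2:204508886-204509185, plus strand) belong to chains with large changes in opposite directions.
Plod2: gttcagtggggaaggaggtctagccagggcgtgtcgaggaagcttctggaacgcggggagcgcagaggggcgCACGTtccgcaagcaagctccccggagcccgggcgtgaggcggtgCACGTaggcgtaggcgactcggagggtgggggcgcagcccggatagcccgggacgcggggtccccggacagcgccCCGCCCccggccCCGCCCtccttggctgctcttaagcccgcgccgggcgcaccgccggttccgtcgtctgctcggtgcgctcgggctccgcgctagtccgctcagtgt
P4ha1: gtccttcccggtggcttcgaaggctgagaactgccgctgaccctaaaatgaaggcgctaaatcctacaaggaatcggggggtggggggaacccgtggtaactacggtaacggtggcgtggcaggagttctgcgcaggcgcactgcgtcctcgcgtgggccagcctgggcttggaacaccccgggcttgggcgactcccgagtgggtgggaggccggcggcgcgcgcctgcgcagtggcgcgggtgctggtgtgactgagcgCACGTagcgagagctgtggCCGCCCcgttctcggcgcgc
Col8a1: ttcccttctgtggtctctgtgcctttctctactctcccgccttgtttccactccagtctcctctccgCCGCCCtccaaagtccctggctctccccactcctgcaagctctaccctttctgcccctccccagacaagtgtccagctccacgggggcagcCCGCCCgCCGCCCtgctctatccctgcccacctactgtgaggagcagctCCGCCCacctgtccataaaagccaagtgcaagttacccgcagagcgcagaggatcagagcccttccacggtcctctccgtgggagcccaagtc
Col11a1: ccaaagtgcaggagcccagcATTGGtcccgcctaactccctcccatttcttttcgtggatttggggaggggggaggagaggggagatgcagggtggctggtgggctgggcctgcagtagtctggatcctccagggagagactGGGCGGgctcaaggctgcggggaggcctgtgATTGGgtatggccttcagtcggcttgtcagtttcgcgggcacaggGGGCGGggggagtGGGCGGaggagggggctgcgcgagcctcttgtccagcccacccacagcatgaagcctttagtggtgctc

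Of the 50 described chains, enzymes and chaperone, 39 matched a RefSeq start region by symbol. Lox, Col1a1, Col3a1 and Col12a1 were among those without a match, so their start regions were not searched. The GC box stood in 26 of the 39, against 33.1% of all 33469 start regions in that table. The CCAAT box stood in 9 of the 39, against 37.5% of all, the TATA box in 2, against 14.2%, and the hypoxia-inducible factor core in 5, against 19.3%. The 5 with the core were Plod2 and P4ha1, which rose, and P4ha2, Col4a5 and Col26a1, which did not pass, at -0.41, -0.02 and -0.27. The Col4a1 region was 75% G and C and the Col4a2 region 73.7%, against a mean of 52.7% over all start regions. The motif counts were not adjusted for G and C content. The Col4a1 and Col4a2 regions share 176 bases, so a match there counts for both. A match is a stretch of letters and no measured binding site.

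Among the fibrillar chains, 1 of 10 tested rose, 4 fell and 5 did not pass (50% called, against 15.7% of all tested genes). The 4 include Col2a1, which passed the expression filter through the control libraries alone. Col3a1 (ENSRNOG00000003357), the chain of type III collagen, had 2603 and 2843 CPM (counts per 1e6 counts, by adjusted library size) in PE libraries, against 7841 and 6076 CPM in control libraries. Both PE libraries were far below both controls, and the log2 fold change was -1.35 ± 0.20 (SE, adjusted p = 0.00118). CPM values are not divided by gene length, so levels are set side by side here for the same gene and not between genes. Col1a1 (ENSRNOG00000003897), the main chain of type I collagen, had 3273 and 4109 CPM in PE libraries, against 6661 and 4481 CPM in control libraries. PE libraries were lower without overlap, but PE replicate 2 lay near control replicate 2. At a log2 fold change of -0.59 ± 0.23 Col1a1 did not pass in edgeR (adjusted p = 0.11), while in the authors' deposited table it did (adjusted p = 0.0474). It was at -0.85 without control replicate 2, where it passed (adjusted p = 2.08e-12), and at -0.27 without control replicate 1. Ranges that do not overlap between the groups were common, with 56.7% of all tested genes, so this alone says little. The ratio of Col1a1 to Col3a1 counts was 1.26 and 1.45 in PE libraries, against 0.85 and 0.737 in control libraries. This ratio is free of library scaling and did not overlap between groups, but with 2 libraries against 2 the smallest p of an exact permutation test is 0.333, so no such test can pass.

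Col1a2, the partner chain of Col1a1 in type I collagen, had 1 and 1 counts in PE libraries, against 5 and 1 counts in control libraries. Its partner had at least 183703 counts in every library. A cause of this near absence was not tested, and no level of Col1a2 is read from it.

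The minor fibrillar chains also split. Col11a1 (ENSRNOG00000023148), which nucleates and limits fibrils and is best known from cartilage, had 5.01 and 4.89 CPM in PE libraries, against 36.1 and 30.1 CPM in control libraries. Its log2 fold change of -2.74 ± 0.20 (adjusted p = 2.24e-05) had the smallest adjusted p of the members. Col11a2 was at -1.33 ± 0.47 and did not pass (adjusted p = 0.0871). Col2a1 (ENSRNOG00000058560), the main collagen of cartilage, had 2 and 7 counts in PE libraries, against 42 and 20 counts in control libraries. It fell by 2.77 ± 0.70 on the log2 scale (adjusted p = 0.0237), but it was over the filter's cutoff in control libraries alone, so it had to be lower with PE to be tested as it was. Without PE replicate 1 it was at -2.03 (adjusted p = 0.19), without PE replicate 2 at -4.01, and without control replicate 1 at -2.27 (adjusted p = 0.0667).

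Col24a1 (ENSRNOG00000014143), a fibrillar chain known from developing bone and cornea, rose. It had 16.8 and 15.7 CPM in PE libraries, against 4.25 and 5.44 CPM in control libraries, a log2 fold change of 1.74 ± 0.21 (adjusted p = 0.00036). Col27a1 (ENSRNOG00000007657), a fibrillar chain of growth plate cartilage, had 20.6 and 24.5 CPM in PE libraries, against 38.1 and 35.6 CPM in control libraries. Its log2 fold change was -0.71 ± 0.17 (adjusted p = 0.0202), a call that was lost at -0.59 (adjusted p = 0.446) when PE replicate 1 was dropped and at -0.84 (adjusted p = 0.152) when PE replicate 2 was. The type V chains, which control fibril diameter, did not pass. Col5a1 was at -0.21 ± 0.21 and at 0.08 without control replicate 1, and it passed without control replicate 2 at -0.45 (adjusted p = 0.00359). Col5a2 had 670 and 656 CPM in PE libraries, against 666 and 656 CPM in control libraries, so its groups lay on top of each other. Col5a3 was at 0.19 ± 0.18.

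**Figure D2:**
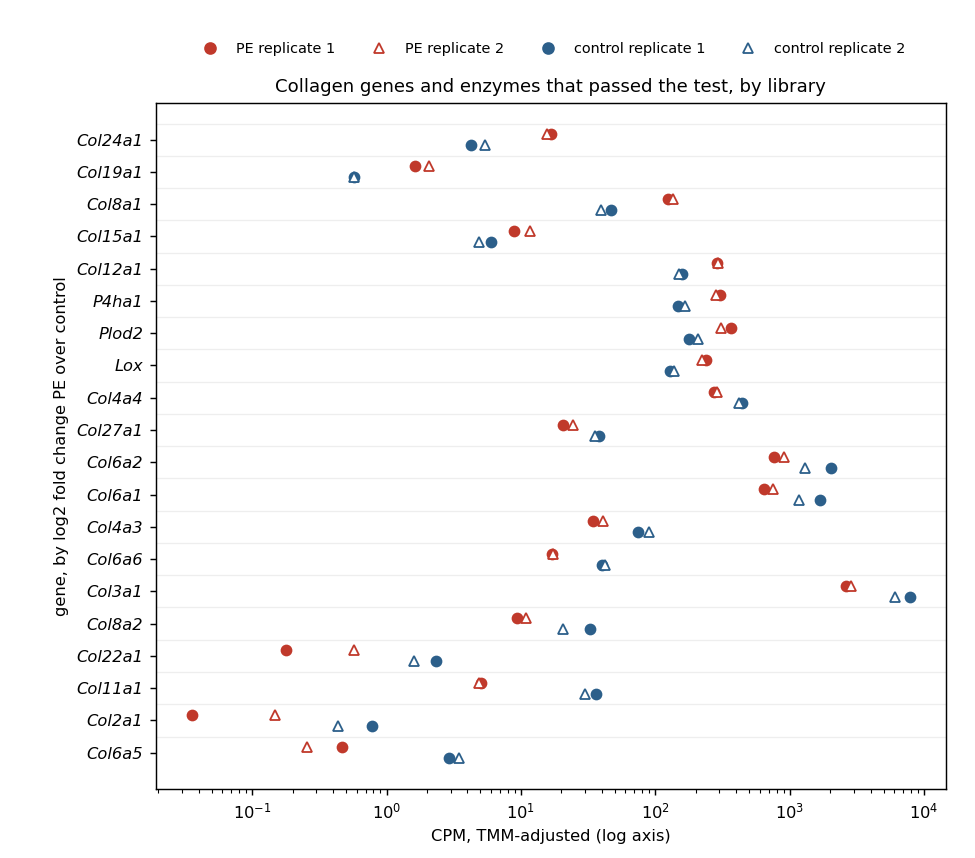
CPM per library (x axis, log scale) of the 20 members that passed the test (y axis), with PE libraries in red above control libraries in blue and replicates 1 and 2 as filled circles and open triangles. Col3a1 has 2603 and 2843 CPM with PE against 7841 and 6076 in controls. No member shown has overlapping groups, but these members were picked by the test. Groups do not overlap for 56.7% of all tested genes.

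All 4 tested type VI chains fell, against 8.3% called lower among all tested genes. Type VI collagen forms beaded filaments that link cells and the basement membrane to the interstitial fibrils. Col6a1 (ENSRNOG00000001249) had 642 and 750 CPM in PE libraries, against 1673 and 1177 CPM in control libraries. Col6a2 (ENSRNOG00000001254) had 759 and 915 CPM in PE libraries, against 2035 and 1306 CPM in control libraries. Control replicate 1 was well above control replicate 2 for both, and the PE libraries were below either. The log2 fold changes were -1.03 ± 0.21 for Col6a1 and -0.997 ± 0.23 for Col6a2 (adjusted p = 0.00713 and 0.0143). Both calls were lost when PE replicate 1 was dropped, at -0.92 and -0.86 (adjusted p = 0.11 and 0.144). Dropping control replicate 1 put Col6a2 at -0.64, still a call. The ratio of Col6a1 to Col6a2 counts was 0.845 and 0.82 in PE libraries, against 0.822 and 0.902 in control libraries, and the ranges overlap. Col6a6 (ENSRNOG00000023007) had 17.1 and 17.4 CPM in PE libraries, against 39.8 and 42.2 CPM in control libraries (log2 fold change -1.25 ± 0.17, adjusted p = 0.00071). Col6a5 (ENSRNOG00000010663) had 26 and 12 counts in PE libraries, against 156 and 159 counts in control libraries, and fell by 3.13 ± 0.36 on the log2 scale (adjusted p = 0.00032). Col6a4 had 3 counts over all libraries and was not tested. Col6a3 was not among the matched genes, so neither the counts nor the sums of type VI chains hold it.

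Of 6 tested type IV chains, 2 fell and 4 did not pass (33.3% called, against 15.7% of all tested genes). Col4a1 and Col4a2 encode the chains of the widespread form of basement membrane collagen. Col4a1 (ENSRNOG00000016281) had 3471 and 3828 CPM in PE libraries, against 2779 and 2110 CPM in control libraries. Col4a2 (ENSRNOG00000023972) had 2025 and 2357 CPM in PE libraries, against 1716 and 1229 CPM in control libraries. PE libraries were higher without overlap for both, by 0.58 ± 0.19 and 0.57 ± 0.21 on the log2 scale, but neither passed in edgeR (adjusted p = 0.0745 and 0.0894). The authors' deposited table has both past the threshold (adjusted p = 0.0214 and 0.0348). Both also passed without a filter on low counts (adjusted p = 0.00482 and 0.00721), without control replicate 1 at 0.80 and 0.84, and without control replicate 2 at 0.39 and 0.35. In fits with a lone control library, the spread is that of the PE libraries. The ratio of Col4a1 to Col4a2 was 1.71 and 1.62 in PE libraries, against 1.62 and 1.72 in control libraries, with ranges that overlap.

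Col4a3 and Col4a4 encode chains of the form best known from the kidney filter, lung and cochlea. Col4a3 (ENSRNOG00000015365) had 34.2 and 40.5 CPM in PE libraries, against 74.0 and 90.0 CPM in control libraries. It fell by 1.13 ± 0.18 on the log2 scale (adjusted p = 0.00195), a call lost at -1.01 (adjusted p = 0.0627) when PE replicate 1 was dropped. Col4a4 (ENSRNOG00000014851) had 273 and 286 CPM in PE libraries, against 444 and 423 CPM in control libraries, a log2 fold change of -0.63 ± 0.16 (adjusted p = 0.0217). The call was lost at -0.60 (adjusted p = 0.449) when PE replicate 1 was dropped and at -0.66 (adjusted p = 0.344) when PE replicate 2 was. The ratio of Col4a3 to Col4a4 counts was 0.125 and 0.142 in PE libraries, against 0.167 and 0.213 in control libraries. Col4a5 and Col4a6 did not pass, at -0.02 ± 0.17 and -0.09 ± 0.19, with overlapping groups. Whether the pairs differ from each other in their response was not tested.

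**Figure D3:**
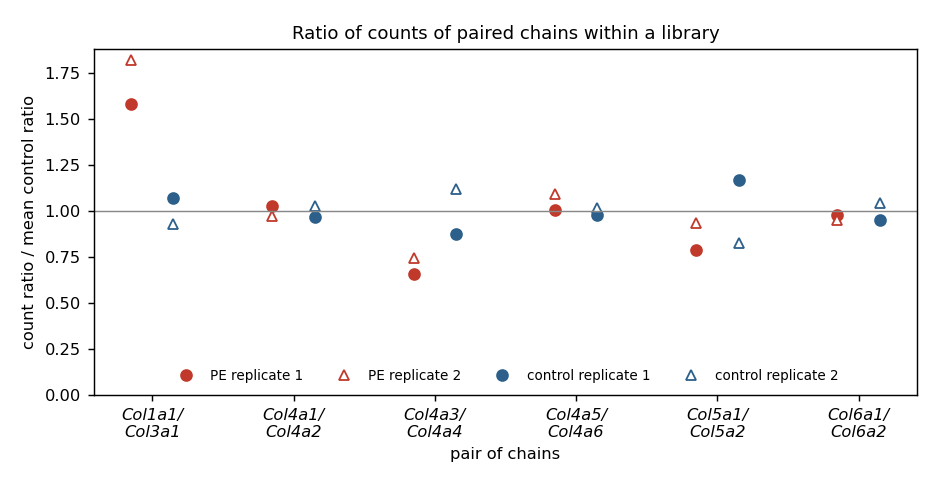
Ratio of the counts of paired chains within a library (y axis, divided by the mean ratio of the control libraries) for 6 pairs (x axis), with PE libraries in red at left and control libraries in blue at right. Col1a1 to Col3a1 is higher in both PE libraries and Col4a3 to Col4a4 lower, while Col4a1 to Col4a2 and Col6a1 to Col6a2 lie near the line at 1.

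The type VIII chains went opposite ways. They form short-chain networks in vessel walls and at the back of the cornea. Col8a1 (ENSRNOG00000039668) had 125 and 136 CPM in PE libraries, against 46.5 and 39.2 CPM in control libraries, a log2 fold change of 1.61 ± 0.17 (adjusted p = 0.00019). Col8a2 (ENSRNOG00000010841) had 9.35 and 10.8 CPM in PE libraries, against 32.9 and 20.6 CPM in control libraries, a log2 fold change of -1.41 ± 0.24 (adjusted p = 0.00296). Both passed whichever library was left out. Col10a1, the network collagen of hypertrophic cartilage, had 0 counts in every library.

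Among the fibril-associated chains, which sit on the surface of fibrils, 2 of 8 tested rose, 1 fell and 5 did not pass. That is 37.5% called, against 15.7% of all tested genes. Col12a1 (ENSRNOG00000058470), found on type I fibrils in tissues under tension, had 290 and 294 CPM in PE libraries, against 159 and 151 CPM in control libraries. The replicates were tight and the log2 fold change was 0.92 ± 0.16 (adjusted p = 0.00302). Dropping PE replicate 1 left 0.93 (adjusted p = 0.0686) and dropping PE replicate 2 left 0.91 (adjusted p = 0.0746), neither a call. The related Col14a1 had 554 and 592 CPM in PE libraries, against 707 and 603 CPM in control libraries, and did not pass (-0.19 ± 0.17). Col19a1 (ENSRNOG00000012759), known from muscle and neurons, had 91 and 98 counts in PE libraries, against 31 and 26 counts in control libraries. It rose by 1.68 ± 0.35 (adjusted p = 0.00832) a call lost at 1.5 (adjusted p = 0.06) when PE replicate 2 was dropped. Col22a1 (ENSRNOG00000024824), a chain of tissue junctions such as that of muscle and tendon, had 10 and 27 counts in PE libraries, against 126 and 73 counts in control libraries. It fell by 2.43 ± 0.49 on the log2 scale (adjusted p = 0.00795), with -1.78 without PE replicate 1 and -3.45 without PE replicate 2. Col16a1, Col20a1, Col9a2 and Col9a3 lay between -0.96 and 0.44 and did not pass.

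Of the remaining chains, Col15a1 (ENSRNOG00000060381), a basement membrane zone collagen of muscle and vessels, rose. It had 8.89 and 11.8 CPM in PE libraries, against 6.04 and 4.87 CPM in control libraries, a log2 fold change of 0.92 ± 0.22 (adjusted p = 0.0198), a call lost at 0.71 (adjusted p = 0.236) when PE replicate 2 was dropped. Col18a1, the source of endostatin, had 433 and 463 CPM in PE libraries, against 491 and 348 CPM in control libraries, so the control libraries lay on either side of the PE libraries. The membrane-spanning chains Col13a1 and Col17a1 were at 0.31 ± 0.18 and 0.90 ± 0.28 and did not pass (adjusted p = 0.308 and 0.054). Col7a1 of anchoring fibrils, Col26a1 and Col28a1 were at 0.27, -0.27 and -0.45 and did not pass. Col25a1 had 43 counts over all libraries and did not pass the filter. Col9a1, with 10 counts, and Col23a1, with 0, were under a summed count of 15.

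In the enzyme families 1 gene of each rose, so 25% of the 12 enzyme and chaperone genes were called, against 15.7% of all tested genes. Lox (ENSRNOG00000014426), the lysyl oxidase that starts crosslinking, had 241 and 224 CPM in PE libraries, against 130 and 138 CPM in control libraries, a log2 fold change of 0.80 ± 0.16 (adjusted p = 0.00666). Loxl1, Loxl2, Loxl3 and Loxl4, its paralogs, were at 0.05, 0.36, 0.08 and -0.35 and did not pass. Plod2 (ENSRNOG00000030183), which hydroxylates lysines of the chain ends used in crosslinks, had 367 and 309 CPM in PE libraries, against 178 and 208 CPM in control libraries, a log2 fold change of 0.81 ± 0.17 (adjusted p = 0.0101). Plod1, which acts on the helical part, was at 0.09 ± 0.20, and Plod3, which also adds sugars, at 0.34 ± 0.19. P4ha1 (ENSRNOG00000050655), a catalytic subunit of prolyl 4-hydroxylase, had 303 and 282 CPM in PE libraries, against 147 and 167 CPM in control libraries, a log2 fold change of 0.90 ± 0.16 (adjusted p = 0.00414). Its paralogs P4ha2 and P4ha3 were at -0.41 ± 0.16 and -0.08 ± 0.16 and did not pass (adjusted p = 0.117 and 0.794). Serpinh1 had 895 and 962 CPM in PE libraries, against 1030 and 821 CPM in control libraries, with the PE libraries between the controls.

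None of these 3 enzyme calls held when either PE library was dropped. Without PE replicate 1, Lox, Plod2 and P4ha1 were at 0.75, 0.68 and 0.85 and did not pass (adjusted p = 0.209, 0.289 and 0.117). Without PE replicate 2 they were at 0.85, 0.94 and 0.95 and did not pass (adjusted p = 0.107, 0.0634 and 0.0561). Differences between paralogs were not tested. Loxl3 and Plod1 turned direction between the control libraries, with 0.60 and 0.40 without control replicate 1 and -0.29 and -0.16 without control replicate 2. Loxl3, Plod1, Plod3 and Loxl2 passed without control replicate 1, the last pair at 0.63 and 0.61, and P4ha2 passed without control replicate 2, at -0.50.

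Summed over a family, the fibrillar chains took 8119 ± 856 CPM in PE libraries, against 14401 ± 3083 CPM in control libraries (SD, n = 2 each). Col1a1 and Col3a1 held 45.6% of the reads of all chains. Col1a2, near absent in the counts, and Col6a3, not among the matched genes, add no level to the sums given here. The type VI chains took 1550 ± 187 CPM in PE libraries, against 3140 ± 864 CPM in control libraries, and the type IV chains 6409 ± 500 CPM in PE libraries, against 4688 ± 859 CPM in control libraries. All chains together took 16591 and 18875 CPM in PE libraries, against 27245 and 20144 CPM in control libraries. The chains other than Col1a1 and Col3a1 took 11318 ± 854 CPM in PE libraries, against 11165 ± 2231 CPM in control libraries (SD, n = 2 each). Within that near-equal sum the type VI sum was lower with PE and the type IV sum higher. Most type IV reads came from Col4a1 and Col4a2, which did not pass, while Col4a3 and Col4a4 fell. Net of these opposite changes, and among chains with a level here, the lower sum with PE lay in Col1a1 and Col3a1. Of these, Col1a1 did not pass. For the sum of all chains, the control libraries differed more from each other than the PE libraries did, and the difference of the group means was -5962 CPM, or -2411 CPM without control replicate 1. Counts of mitochondrial genes made up 4.61 to 4.76% of the PE libraries, against 6.19 to 11.7% of the control libraries, with the highest share in control replicate 2. With mitochondrial genes left out of the library sizes, the difference of the group means for all chains was -6502 CPM. Beyond this, the part of mitochondrial genes in these differences was not tested.

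**Figure D4:**
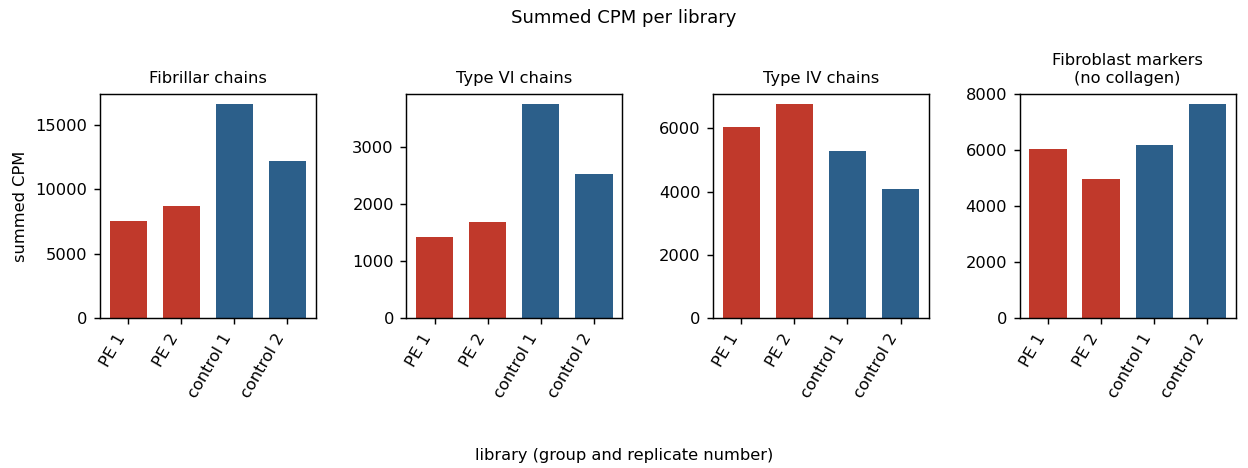
Summed CPM per library (y axis, each panel with its own scale from 0) of fibrillar, type VI and type IV chains and of 14 fibroblast markers that are no collagens, with PE libraries in red and control libraries in blue (x axis). Fibrillar and type VI sums are lower in both PE libraries and type IV sums higher, and the fibroblast marker sum is highest in control replicate 2.

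The libraries are bulk samples, so fewer cells of a type and less RNA per cell cannot be told apart. Fibroblasts make much of the fibrillar collagen, and the early plating step was meant to remove cells other than cardiomyocytes. Of 14 fibroblast markers other than collagens, 1 rose, 3 fell and 10 did not pass, and none was at 0 in any library. That is 28.6% called, against 15.7% of all tested genes, and 9 of the 14 had a positive log2 fold change, with a median of 0.10. Their summed level was 4977 to 6025 CPM in PE libraries, against 6162 to 7624 CPM in control libraries. Without Postn, a choice made after seeing the data, the sums were 3588 to 4134 CPM in PE libraries, against 3983 to 4046 CPM in control libraries, and the groups overlapped. Control replicate 1 was above control replicate 2 for the chain sum but below it for the marker sum. The marker with most reads, Postn, which encodes periostin, was at -0.81 ± 0.25 and did not pass (adjusted p = 0.0563). Next by reads were Vim and Dcn, the decorin gene, at 0.09 ± 0.20 and 0.50 ± 0.27, which did not pass (adjusted p = 0.812 and 0.254). The markers that fell were Pdgfra, a growth factor receptor gene, at -0.67 ± 0.17, and the matrix protein genes Fbln1 and Dpt at -0.93 ± 0.17 and -1.99 ± 0.20. Cthrc1, which encodes a secreted protein, rose by 0.61 ± 0.18 (adjusted p = 0.0485). Its call was lost with upper-quartile factors (adjusted p = 0.0578), library sizes alone (0.0677), mitochondrial genes left out (0.0509) or the replicate number as a block (0.167), and the block also lost Pdgfra (adjusted p = 0.0735). When PE replicate 1 was dropped, Pdgfra, Fbln1 and Cthrc1 were at -0.81, -0.89 and 0.51 and uncalled (adjusted p = 0.194, 0.134 and 0.529). When PE replicate 2 was dropped they were at -0.52, -0.96 and 0.72 and uncalled (adjusted p = 0.525, 0.0834 and 0.227). The part of these markers in the collagen results was not tested. The 9 tested cardiomyocyte markers gave 1 higher and 8 not passing (11.1% called). The one that rose was Myl2, a myosin light chain gene, at 0.71 ± 0.18 (adjusted p = 0.0217), a call lost with the block (adjusted p = 0.0523). Dropping PE replicate 1 left it uncalled at 0.75 (adjusted p = 0.208), as did dropping PE replicate 2 at 0.67 (adjusted p = 0.288). The others had 2 positive and 6 negative log2 fold changes. Actn2, a sarcomere gene, had 3005 and 3415 CPM in PE libraries, against 2285 and 1950 CPM in control libraries (adjusted p = 0.0506). Tnnt2, cardiac troponin T, had 2483 and 2432 CPM in PE libraries, against 2244 and 3866 CPM in control libraries.

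Markers of other cells are given beside the 15.7% called of all tested genes. Of 9 endothelial markers 1 rose and 5 fell (66.7% called), with a summed level of 168 to 176 CPM in PE libraries, against 238 to 241 CPM in control libraries. Of 10 macrophage markers 3 fell and 7 did not pass, or 30% called (212 to 238 CPM in PE libraries, against 319 to 362 CPM in control libraries). Of 10 mesothelial markers 2 rose and 4 fell, or 60% called (192.1 to 192.4 CPM in PE libraries, against 266 to 315 CPM in control libraries). Of 8 mural cell markers, 2 rose and 1 fell (37.5% called). Of 5 tested Schwann cell markers 1 rose (20% called). The 1 tested red cell gene, Hba-a2, fell at a level under 1 CPM in every library. It was over the filter's cutoff of 0.2 CPM in control libraries alone, so it had to be lower with PE to be tested as it was. What part the markers of these other cells had in the collagen results was not tested.

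Of 17 further genes of folding and secretion, 1 rose, 1 fell and 15 did not pass, so 11.8% were called, against 15.7% of all tested genes. P3h2, a prolyl 3-hydroxylase, had 14.6 and 14.8 CPM in PE libraries, against 2.72 and 2.68 CPM in control libraries, a log2 fold change of 2.45 ± 0.20 (adjusted p = 4.61e-05). Creb3l1, a transcription factor that induces collagen genes, fell by 0.81 ± 0.17 on the log2 scale. Of 8 tested genes of procollagen processing and collagen assembly, 1 rose and 2 fell (37.5% called). The fibronectin gene Fn1, on whose matrix collagen assembles, rose by 0.996 ± 0.19, while the procollagen N-proteinase genes Adamts3 and Adamts14 fell, at -2.07 ± 0.20 and -1.13 ± 0.21. Of 6 fibril-binding proteoglycan genes 2 fell (33.3% called), with Fmod, fibromodulin, at -2.64 ± 0.19 and Ogn, osteoglycin, at -2.08 ± 0.61. Dropping control replicate 2 left Ogn at -0.95 (adjusted p = 0.335), no call, dropping control replicate 1 left it at -2.71, and upper-quartile factors also lost its call (adjusted p = 0.0512).

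Collagen receptor genes had 3 higher, 1 lower and 4 not passing of 8 tested (50% called, against 15.7% of all tested genes). Itga1 had 449 and 390 CPM in PE libraries, against 121 and 155 CPM in control libraries. It rose by 1.61 ± 0.18, and Itga2 and their shared partner Itgb1 rose by 1.48 ± 0.26 and 0.90 ± 0.17, while Itga11, the receptor subunit of fibroblasts for type I collagen, fell by 0.82 ± 0.20 on the log2 scale. Of 9 tested genes of collagen breakdown and its inhibitors, 1 rose, 2 fell and 6 did not pass (33.3% called, against 15.7% of all tested genes). The 6 were the tested protease genes, and the calls were all inhibitor genes. The inhibitor gene Timp1 rose by 1.42 ± 0.21, and its relatives Timp2 and Timp3 fell, at -0.73 ± 0.17 and -0.80 ± 0.17. Without PE replicate 1, Creb3l1, Itga11, Itgb1, Timp2 and Timp3 were at -0.72, -0.71, 0.81, -0.67 and -0.75 and did not pass (adjusted p = 0.287, 0.29, 0.149, 0.354 and 0.255). Without PE replicate 2, Creb3l1, Itga11, Timp2 and Timp3 were at -0.90, -0.92, -0.79 and -0.85 and did not pass (adjusted p = 0.11, 0.1, 0.204 and 0.151).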

How the data were processed

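Raw counts per gene and library were deposited by the authors. Per the submitters' processing notes, the tools include cutadapt 2.0, STAR 2.4.2a and featureCounts 1.6.4, and the build was Rnor_6.0. Neither their parameters nor the annotation and strand option of the counting could be read from the sources used here. A second table deposited by the authors gives a log2 fold change, p-value and adjusted p-value per gene, with gene names and types. Its mean normalized signal and its test score were deposited by the authors too and not used. All 4 libraries were fitted with the quasi-likelihood test of edgeR 4.0.16 (limma 3.58.1, R 4.3.3), with TMM factors and the default filter (minimum count 10, minimum total 15), and Benjamini-Hochberg adjustment over 15257 genes. CPM used TMM-adjusted library sizes. Of the 49 tested members, 44 were over the filter's cutoff of 0.2 CPM in every library. The script was also run on simulated counts with known changes. Replicates differed beyond counting noise (chi-square over its degrees of freedom 23.4 for PE and 161 for control), so each was kept as a sample. Alternatives were DESeq2 1.42.0, other scalings, no filter, left-out libraries, a replicate block and omission of mitochondrial genes. Members named in full were those called, the 10 with most reads and all enzymes. Of other pathway lists, up to 4 called genes with the largest change were named. The rule also named the called and the 2 highest genes of each marker list; here most marker lists are given by counts alone. The members and lists were chosen with earlier results of these data known. Start regions came from RefSeq (GRCr8), and no coordinates of Rnor_6.0 were used.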

Additional observations from a re-analysis of the deposited data

How the results depend on the processing

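All 20 called members kept their sign under every alternative, and 8 of them stayed called under each planned one. None was lost with DESeq2, upper-quartile factors, library sizes alone, no filter or mitochondrial genes left out. With a library left out, 10 were lost without PE replicate 1, 8 without PE replicate 2, 1 without control replicate 1 and 0 without control replicate 2. Over the left-out libraries, genes higher with PE numbered 604 to 2398 and lower 601 to 2389, members higher 2 to 16 and lower 6 to 17, the chain median lay between -0.30 and 0.050 and the enzyme median between -0.13 and 0.50. The summed chain difference lay between -9512 and -2411 CPM. The cause was not tested, beyond that a fit with a lone library takes its spread from the other group.

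Of the uncalled genes that turned sign, Col5a1 passed without control replicate 2, and Loxl3 and Plod1 without control replicate 1. Over left-out libraries, log2 fold changes were -0.45 to 0.078 for Col5a1, -0.0069 to 0.026 for Col5a2, -0.13 to 0.27 for Loxl1, -0.29 to 0.60 for Loxl3, -0.16 to 0.40 for Plod1 and -0.15 to 0.18 for Serpinh1. Col5a2 and Serpinh1 were at -0.022 and -0.020 with upper-quartile factors, -0.043 and -0.045 with library sizes alone, and -0.0037 and -0.0026 with mitochondrial genes left out.

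Replicate numbers are not said to pair libraries. Deviations of same-numbered libraries correlated at -0.452 across genes. With a replicate block, 913 genes were higher and 1051 lower, 8 members higher and 10 lower, and among members Col27a1 and Col4a4 were no longer called (-0.72 and -0.63, adjusted p = 0.0704 and 0.104). With the numbers crossed, added after seeing the data, 2270 genes were higher and 2407 lower, and 13 members higher and 16 lower. No label pairs libraries this way. Crossing turns the negative correlation positive, so more calls could be foreseen and say nothing of pairing. Depth limits Col2a1, Col22a1 and Col6a5, with under 30 counts in each PE library.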
